A study of Mus musculus with 6 samples.

Results

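The aminoacyl-tRNA synthetases are the enzymes that attach each amino acid to its own transfer RNA (tRNA), and their genes were followed here in mouse primary pulmonary fibroblasts. Members were chosen by gene symbol alone, the letter of the amino acid followed by "ars", together with the bifunctional Eprs and the phenylalanine subunit genes Farsa and Farsb. The rule found 36 of the 25239 rows of the gene table, and all 36 passed the filter on low counts. Of these, 20 encode cytosolic enzymes and 16, with symbols ending in 2, encode mitochondrial enzymes. Lars2, the mitochondrial leucine enzyme, was left out because its row holds reads of ribosomal RNA.

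RNA was sequenced after ribosomal RNA depletion from 3 libraries labelled Nutlin 3a-induced senescent (PF-nSene) and 3 labelled quiescent (PF-Quie). Culture was at 5% oxygen in 10% serum, per the labels, and senescence was induced by 16 hours of RO3306, a Cdk1 inhibitor, and 48 hours of Nutlin 3a, which frees p53 from Mdm2. The Plk1 inhibitor BI-2536 at 100 nM then removed dividing cells, over 12 days in all. The labels of the quiescent samples carry this description too, and the sources used here do not give how quiescence was reached. The labels do not say whether replicates came from separate cultures or animals, and p-values therefore reflect the spread among these libraries alone, which may be technical.

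In mammals most amino acids have separate nuclear genes for the cytosolic and the mitochondrial enzyme. Gars and Kars encode both forms, and mitochondria charge glutamine by a detour through Ears2 and an amidotransferase. Some of the cytosolic enzymes sit in a multi-synthetase complex on the scaffold proteins Aimp1, Aimp2 and Eef1e1. Many cytosolic synthetase genes are known targets of ATF4, the transcription factor of the integrated stress response, which raises amino acid supply and tRNA charging when the kinase Gcn2 (gene Eif2ak4) senses uncharged tRNA. The mitochondrial enzymes serve only the proteins encoded by mitochondrial DNA.

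Library totals ran from 93736593 to 109706025 counts, of which 18219831 to 21386546 lay outside Rn45s, Lars2 and Mir6236, rows that collect ribosomal RNA reads. Senescent replicate 3 lay farthest from the other libraries of its group, with a median absolute difference of 0.152 on the log2 scale against 0.0734 to 0.115 for the other 5 libraries. On the senescent side the markers mostly went with the label, though Ccnd1, a gene of the same check, hardly changed (log2 fold change -0.004). The p53 targets Cdkn1a (log2 fold change 1.14) and Mdm2 (0.95) rose, and Mki67 (-2.33), Top2a (-1.98) and Ccnb1 (-2.15), genes of dividing cells, fell. Nutlin 3a acts on p53 and BI-2536 removes dividing cells, so this check cannot tell senescence from an effect of the drugs. In libraries labelled quiescent these genes of dividing cells were well detected, which goes against a wholly resting population. Mki67 had 12.0, 9.71 and 9.59 CPM (counts scaled to a common library size) in senescent libraries, against 51.6, 55.0 and 51.1 CPM in libraries labelled quiescent, about the level of Eprs there. Top2a averaged 13.4 ± 1.07 CPM in senescent libraries and 52.7 ± 1.41 CPM in libraries labelled quiescent, and Ccnb1 0.896 ± 0.210 CPM in senescent libraries and 4.02 ± 0.289 CPM in libraries labelled quiescent (SD, n = 3 each). Quiescent is therefore used below as the label's word, each difference is against cells with these levels, and the part of dividing cells in the results was not tested. The counts of cell type markers that follow stand beside 36.7% of all tested genes that rose and 37.8% that fell. All 10 fibroblast markers passed the filter (4 rose and 5 fell), summing to 4080 to 4510 CPM in senescent libraries and 4830 to 4970 CPM in quiescent libraries. Of 10 macrophage markers 5 passed the filter and all 5 rose, with the list summing to 10.9 to 14.4 CPM in senescent libraries and 3.99 to 4.25 CPM in quiescent libraries. Of 10 endothelial markers 6 passed, 2 rose and 2 fell (11.0 to 13.3 CPM in senescent and 7.02 to 7.91 CPM in quiescent libraries). Of 10 epithelial markers 2 passed and both rose (6.11 to 7.92 CPM in senescent and 1.26 to 1.30 CPM in quiescent libraries). Of 10 smooth muscle and pericyte markers 9 passed, 6 rose and 2 fell (73.1 to 115 CPM in senescent and 33.8 to 37.0 CPM in quiescent libraries), and of 9 mesothelial markers 8 passed, 1 rose and 4 fell (10.8 to 13.1 CPM in senescent and 11.0 to 12.6 CPM in quiescent libraries). The defining markers Ptprc, Pecam1 and Epcam had at most 9, 6 and 3 counts in any library, and macrophage markers below the filter reached 37 counts. Ptprc had 9, 2 and 7 counts in senescent libraries, against 1, 0 and 2 in quiescent libraries. The macrophage marker Adgre1 had 12, 8 and 9 counts in senescent libraries, against 0, 0 and 3 in quiescent libraries. The part of these cells in the results below was not tested. In bulk RNA, a change in the share of cells expressing a gene and a change of its RNA per cell cannot be told apart.

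Cytosolic synthetase genes were higher in senescent fibroblasts almost throughout. In edgeR's quasi-likelihood test with Benjamini-Hochberg adjustment, 19 of the 20 rose, none fell, and Lars did not pass. Of all 14065 tested genes 74.5% were called, 36.7% as higher and 37.8% as lower, and of the 5133 genes within the expression range of the cytosolic synthetases 50.5% rose and 30.7% fell. The median log2 fold change of the cytosolic genes was 0.60, with a range of 0.11 to 1.32, beside a median of -0.02 over all tested genes. Together they summed to 899 to 913 CPM in senescent libraries and 533 to 559 CPM in quiescent libraries, which is 1.66 times as much. The senescent libraries lay above all quiescent ones for 19 of the 20 genes, where 38.4% of all tested genes did so and 78.3% had groups that did not overlap in either direction. Among the 19, 5 had a point estimate over 2-fold, beside 11.0% of all tested genes. With library totals in place of TMM factors the median of all genes was -0.32 and the cytosolic median 0.31. Under that scaling 2952 of all tested genes rose (21%) and 7435 fell (52.9%), and 14 cytosolic genes rose and 1 fell, while the cytosolic median stayed 0.63 above that of all genes, as with TMM.

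**Figure D1:**
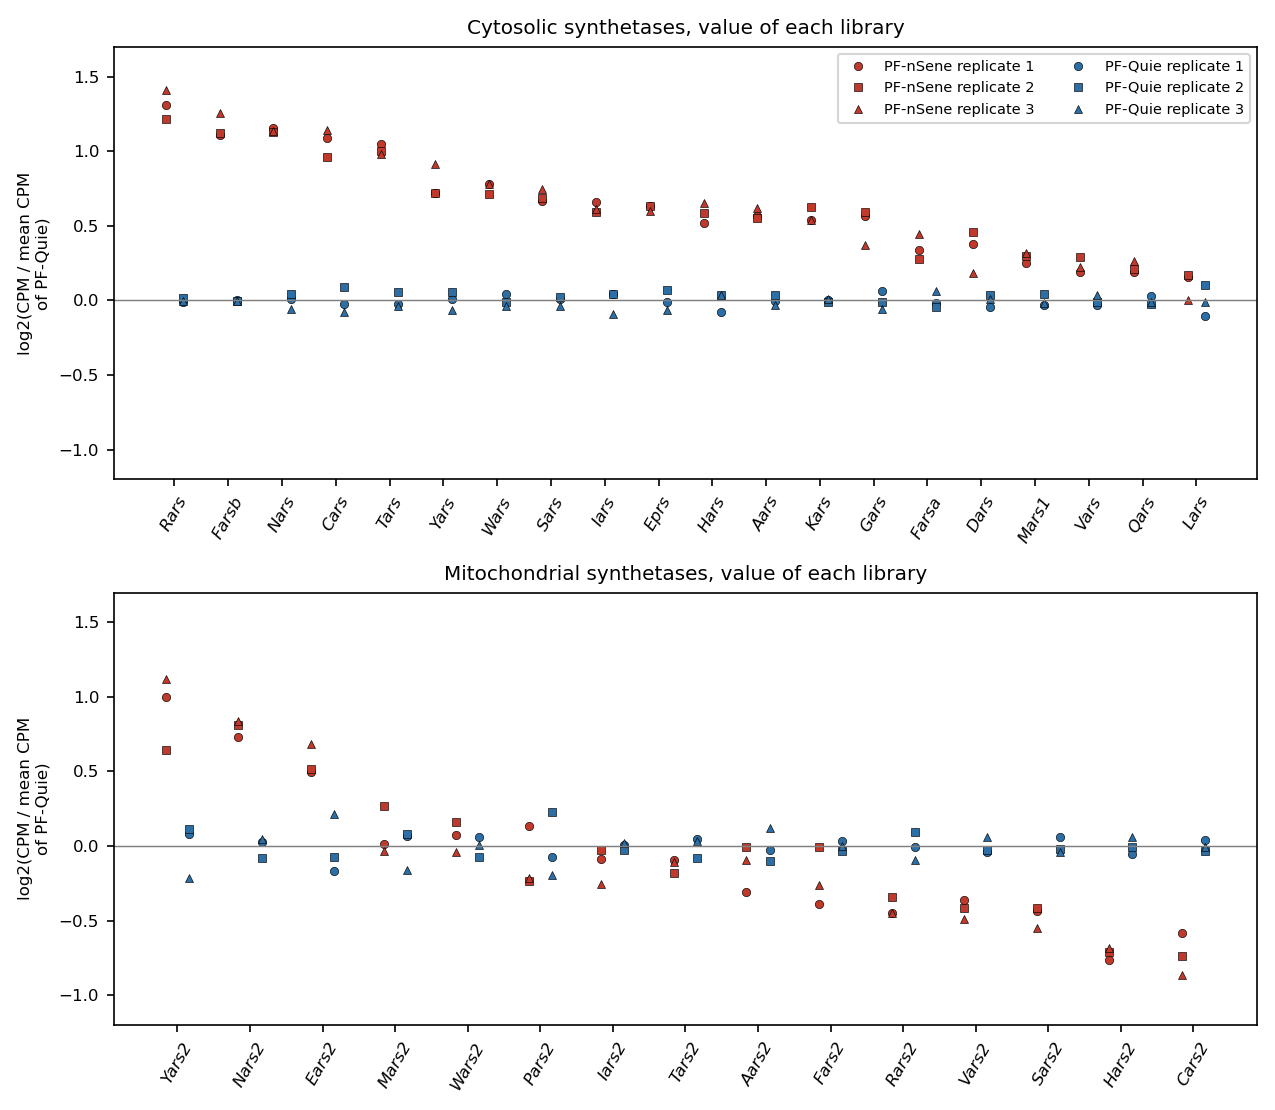
Level of 35 synthetase genes in each library as log2 of CPM over the mean CPM of the quiescent libraries, cytosolic genes above and mitochondrial genes below, ordered by fold change. Red points are senescent and blue points quiescent libraries, with a marker shape per replicate. For 19 of 20 cytosolic genes all red points lie above all blue ones, against 3 of the 15 mitochondrial genes drawn, and for 7 of those they lie below.

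The largest change was that of Rars, which encodes arginyl-tRNA synthetase (chromosome 11, 35808381 to 35834506, minus strand). Rars had 59.1, 55.4 and 63.2 CPM in senescent libraries, against 23.6, 24.1 and 23.7 CPM in quiescent libraries. All senescent values lay far above all quiescent ones, and the log2 fold change was 1.32 (standard error 0.05, edgeR adjusted p = 2.01e-09). Nars, the asparaginyl-tRNA synthetase gene (chromosome 18, 64499647 to 64516652, minus strand), had 170, 166 and 167 CPM in senescent libraries, against 76.5, 78.3 and 72.9 CPM in quiescent libraries. The senescent libraries differed from each other by far less than from the quiescent ones, and the log2 fold change was 1.14 (standard error 0.05).

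Cars, for cysteine (chromosome 7, 143557230 to 143600090, minus strand), had 33.8, 30.9 and 35.0 CPM in senescent libraries, against 15.6, 16.9 and 15.1 CPM in quiescent libraries. Tars, for threonine (chromosome 15, 11382301 to 11399665, minus strand), had 52.6, 50.9 and 50.2 CPM in senescent libraries, against 24.9, 26.4 and 24.8 CPM in quiescent libraries. Neither gene's groups overlapped, with log2 fold changes of 1.07 (standard error 0.06) and 1.01 (standard error 0.05). Yars, for tyrosine, had 33.2, 33.3 and 38.2 CPM in senescent libraries, against 20.3, 20.97 and 19.3 CPM in quiescent libraries. Senescent replicate 3 was the highest of the 3 senescent libraries for Yars, and the log2 fold change of 0.79 was 0.73 without it.

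The phenylalanine enzyme is built from an alpha subunit, encoded by Farsa, and a beta subunit, encoded by Farsb, and the subunit genes rose by different amounts. Farsb (chromosome 1, 78417975 to 78488897, minus strand) had 9.46, 9.51 and 10.5 CPM in senescent libraries, against 4.39, 4.36 and 4.37 CPM in quiescent libraries. Farsa (chromosome 8, 84856989 to 84869257, plus strand) had 10.4, 9.99 and 11.2 CPM in senescent libraries, against 8.13, 7.995 and 8.60 CPM in quiescent libraries. The log2 fold changes were 1.17 (standard error 0.06) for Farsb and 0.36 (standard error 0.06) for Farsa, and the increase of Farsa was not called under library totals (0.06, edgeR adjusted p = 0.548). Per length of their principal transcript, in CPM per kilobase (RPKM), Farsb stood at 4.82 in senescent and 2.15 in quiescent cells, and Farsa at 5.77 in senescent and 4.51 in quiescent cells. The levels of the subunit genes were thus closer to each other in senescent than in quiescent cells.

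A middle group of 8 genes had log2 fold changes of 0.51 to 0.76, with no overlap between groups of libraries. It held Wars, for tryptophan, an enzyme gene known to respond to interferon (0.76), Sars, for serine (0.70), Iars, for isoleucine (0.62), and Eprs, whose product charges both glutamate and proline (0.62). It also held Hars, for histidine (0.59), Aars, for alanine (0.58), Kars, for lysine (0.57), and Gars, for glycine (0.51). Sars had 103, 104 and 109 CPM in senescent libraries, against 65.3, 65.8 and 63.1 CPM in quiescent libraries, and Hars had 26.0, 27.4 and 28.6 CPM in senescent libraries, against 17.2, 18.7 and 18.7 CPM in quiescent libraries. These 8 remained called as higher under library totals, where their log2 fold changes were 0.21 to 0.46.

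A further group rose less, and Lars did not pass. Qars, for glutamine (chromosome 9, 108507706 to 108515941, plus strand), had 24.2, 24.6 and 25.5 CPM in senescent libraries, against 21.7, 20.8 and 21.1 CPM in quiescent libraries (log2 fold change 0.22, standard error 0.05). Vars, for valine, had 25.2, 27.1 and 25.8 CPM in senescent libraries, against 21.7, 21.95 and 22.7 CPM in quiescent libraries (0.24, standard error 0.05). Mars1, for methionine, had 17.6, 18.2 and 18.5 CPM in senescent libraries, against 14.5, 15.3 and 14.7 CPM in quiescent libraries (0.29, standard error 0.05). These groups of libraries were separate but close, and under library totals the log2 fold changes turned to -0.08 for Qars, -0.06 for Vars and -0.01 for Mars1, none of them called.

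Dars, for aspartate, had 16.9, 18.0 and 14.8 CPM in senescent libraries, against 12.6, 13.4 and 13.1 CPM in quiescent libraries (0.34, standard error 0.07), a call that was lost under library totals (0.04, edgeR adjusted p = 0.651) and against a 1.2-fold change (edgeR glmTreat adjusted p = 0.0747). Lars, for leucine, an enzyme also reported as a leucine sensor for mTORC1 (chromosome 18, 42202298 to 42262194, minus strand), had 22.4, 22.6 and 20.1 CPM in senescent libraries, against 18.6, 21.6 and 19.9 CPM in quiescent libraries. Its libraries overlapped, and the log2 fold change was 0.11 (standard error 0.07, edgeR adjusted p = 0.140). The outcome for Lars turned on senescent replicate 3. Without that library its log2 fold change was 0.17 (edgeR adjusted p = 0.00483). In that fit 20 of 20 cytosolic genes rose, beside 5331 of all 14282 tested genes. Under library totals the log2 fold change of Lars was -0.19 (edgeR adjusted p = 0.0469).

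Genes of the multi-synthetase complex covered nearly the whole range. Of its 8 synthetase genes 7 rose, beside 36.7% of all tested genes, and their median log2 fold change was 0.46. The complex held both the largest increase, Rars, and the genes that moved least, Qars and Lars. The 12 cytosolic genes outside the complex all rose, with a median of 0.73, and the 2 ranges, 0.11 to 1.32 inside and 0.24 to 1.17 outside, overlapped. The summed level was 288 to 290 CPM in senescent libraries and 186 to 196 CPM in quiescent libraries for the complex, and 610 to 625 CPM in senescent libraries and 347 to 364 CPM in quiescent libraries for the others. By catalytic fold, the 9 class I genes had a median of 0.62 and the 10 class II genes a median of 0.59, with Eprs, which holds a domain of each class, left out. These groupings were made after the values were seen and are descriptions.

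All 3 scaffold genes of the complex rose, where 36.7% of all tested genes did so. Eef1e1, which encodes the scaffold AIMP3, had 9.13 ± 0.930 CPM in senescent libraries and 3.57 ± 0.158 CPM in quiescent libraries (SD, n = 3 each), a log2 fold change of 1.35 (standard error 0.08). Aimp2 rose by 0.80 (standard error 0.08). Aimp1 rose by 0.33 (standard error 0.06), an increase that was not called under library totals (0.03, edgeR adjusted p = 0.723).

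Promoters of the cytosolic genes are shown because ATF4 is known to bind composite elements near the start of several of them. RefSeq start-site stretches (GRCm38.p6, 250 bases before to 50 after the start) matched 26 of the 36 members, 13 of each class. The cytosolic genes without an entry were Cars, Hars, Lars, Nars, Rars, Vars and Wars, and among the mitochondrial ones Hars2 and Pars2 had none. The core letters of the element, TGATGNAA, searched on both strands, stood in 5 of 13 cytosolic stretches (38.5%) and 0 of 14 mitochondrial stretches, Aars2 having a pair of them. The share was 3.97% of all 32841 stretches and 2.36% of the 14075 stretches of tested genes. All 5 are printed 5′ to 3′ on the strand of the gene, with capitals marking the letters on either strand.
Aars, alanine, chr8:111033592-111033891, plus strand: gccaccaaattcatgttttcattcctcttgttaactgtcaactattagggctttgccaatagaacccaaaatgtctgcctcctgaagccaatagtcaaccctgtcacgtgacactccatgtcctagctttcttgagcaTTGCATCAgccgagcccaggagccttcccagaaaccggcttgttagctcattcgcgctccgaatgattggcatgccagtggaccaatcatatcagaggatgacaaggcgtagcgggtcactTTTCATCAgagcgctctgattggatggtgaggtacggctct
Iars, isoleucine, chr13:49681880-49682179, plus strand: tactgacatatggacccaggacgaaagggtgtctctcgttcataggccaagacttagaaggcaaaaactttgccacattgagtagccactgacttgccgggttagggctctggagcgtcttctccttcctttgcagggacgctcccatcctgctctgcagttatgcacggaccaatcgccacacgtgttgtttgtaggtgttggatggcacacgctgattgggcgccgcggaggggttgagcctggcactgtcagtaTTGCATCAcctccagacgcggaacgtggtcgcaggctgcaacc
Tars, threonine, chr15:11399609-11399908, minus strand: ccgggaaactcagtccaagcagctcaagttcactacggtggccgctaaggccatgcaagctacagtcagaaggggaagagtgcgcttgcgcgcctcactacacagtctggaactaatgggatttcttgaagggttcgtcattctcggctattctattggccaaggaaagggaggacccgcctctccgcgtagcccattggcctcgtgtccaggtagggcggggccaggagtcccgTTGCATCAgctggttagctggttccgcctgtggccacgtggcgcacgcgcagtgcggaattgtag
Yars, tyrosine, chr4:129189653-129189952, plus strand: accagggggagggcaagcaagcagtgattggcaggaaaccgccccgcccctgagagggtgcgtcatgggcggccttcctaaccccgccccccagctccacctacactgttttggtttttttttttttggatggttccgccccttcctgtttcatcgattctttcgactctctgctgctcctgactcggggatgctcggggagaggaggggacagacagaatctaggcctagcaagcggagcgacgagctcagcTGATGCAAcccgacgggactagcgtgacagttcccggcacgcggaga
Gars, glycine, chr6:55037751-55038050, plus strand: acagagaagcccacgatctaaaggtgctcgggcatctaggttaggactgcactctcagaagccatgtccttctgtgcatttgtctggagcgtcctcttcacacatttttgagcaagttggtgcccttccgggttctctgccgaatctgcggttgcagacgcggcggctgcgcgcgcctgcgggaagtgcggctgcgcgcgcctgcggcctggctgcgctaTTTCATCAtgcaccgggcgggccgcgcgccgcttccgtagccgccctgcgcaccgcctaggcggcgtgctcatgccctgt

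In Aars, Iars, Tars and Yars the variable base was C, giving TGATGCAA, and in Gars it was A, while Aars held both forms. The matches lay close to the start site, with the first base at -15 in Tars, -30 in Gars, 4 in Yars and 8 in Iars, and at -112 and 10 in Aars, counted from 1 at the start. In the shorter stretch beginning 150 bases before the start, the same 5 genes held the letters, beside 2.75% of all stretches. The 5 genes had log2 fold changes of 0.51 to 1.01 (median 0.62) and the 8 matched cytosolic genes without the letters 0.22 to 1.17 (median 0.46), so the ranges overlapped and Farsb, without the letters, changed more than any of the 5. Of 30 genes on the list of ATF4 targets described below, 10 held the letters in a stretch (33.3%), beside 2.83% of tested genes with a stretch. Of these 10, Asns, Atf3, Chac1, Got1 and Slc7a11 rose, Nupr1 and Slc1a4 fell, and Pycr1, Trib3 and Vldlr did not pass.

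The E-box CACGTG stood in 4 cytosolic stretches (30.8%, in Aars, Farsb, Iars and Tars) and 1 mitochondrial stretch (Ears2), beside 9.75% of the stretches of tested genes. The ETS letters CCGGAAG stood in 5 cytosolic and 4 mitochondrial stretches, beside 16.2%. The NRF1 motif, given here by name only, stood in 3 cytosolic (23.1%) and 2 mitochondrial (14.3%) stretches, beside 9.24%. In the members no match of the 4 motifs, all searched on both strands, overlapped another. A match describes letters only and is not evidence of binding.

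Mitochondrial synthetase genes did not share the direction of the cytosolic ones. Of 16, 3 rose (18.8%), 6 fell (37.5%) and 7 did not pass, beside 33.9% that rose and 41.6% that fell among the 8033 tested genes within their range of expression. Their median log2 fold change was -0.13, with a range of -0.73 to 0.94. The senescent libraries lay below all quiescent ones for 8 of the 16 genes, where 39.9% of all tested genes did so. Summed, they made up 40.7 to 42.8 CPM in senescent libraries and 46.6 to 47.6 CPM in quiescent libraries, 0.889 times as much. Under library totals 2 rose and 10 fell, where 52.9% of all tested genes fell, and their median lay 0.11 below that of all genes under that scaling and with TMM.

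The mitochondrial genes that rose were Yars2, Nars2 and Ears2. Yars2, for tyrosine (chromosome 16, 16302965 to 16309640, plus strand), had 2.08, 1.63 and 2.27 CPM in senescent libraries, against 1.10, 1.13 and 0.897 CPM in quiescent libraries. Its spread was the widest of the 3, and the log2 fold change was 0.94 (standard error 0.14). Nars2, for asparagine (chromosome 7, 96951505 to 97064758, plus strand), had 1.33, 1.41 and 1.44 CPM in senescent libraries, against 0.819, 0.759 and 0.830 CPM in quiescent libraries (log2 fold change 0.80, standard error 0.11). Ears2, for glutamate (chromosome 7, 122037213 to 122067263, minus strand), had 1.65, 1.68 and 1.89 CPM in senescent libraries, against 1.04, 1.11 and 1.36 CPM in quiescent libraries (0.57, standard error 0.12). The groups did not overlap for any of the 3, and only the increase of Ears2 was not called under library totals (0.28, edgeR adjusted p = 0.0663).

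Cars2 and Hars2 fell most. Cars2, for cysteine (chromosome 8, 11513977 to 11550783, minus strand), had 1.45, 1.31 and 1.195 CPM in senescent libraries, against 2.24, 2.13 and 2.17 CPM in quiescent libraries (log2 fold change -0.73, standard error 0.10). Hars2, for histidine (chromosome 18, 36783008 to 36792562, plus strand), had 2.93, 3.04 and 3.10 CPM in senescent libraries, against 4.79, 4.94 and 5.18 CPM in quiescent libraries (-0.72, standard error 0.07). All senescent libraries lay below all quiescent ones for both genes. Hars2 lies beside Hars on the opposite strand, with 195 exon bases of the genes overlapping, and Hars rose. The sources used here do not state whether counting used strand.

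Sars2, for serine, had 1.19, 1.21 and 1.10 CPM in senescent libraries, against 1.68, 1.59 and 1.57 CPM in quiescent libraries (log2 fold change -0.47, standard error 0.10). Vars2, for valine, had 3.25, 3.13 and 2.97 CPM in senescent libraries, against 4.07, 4.11 and 4.36 CPM in quiescent libraries (-0.42, standard error 0.07). Neither gene's groups overlapped.

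Rars2, for arginine, had 2.12, 2.29 and 2.12 CPM in senescent libraries, against 2.89, 3.09 and 2.72 CPM in quiescent libraries (-0.41, standard error 0.09). The groups did not overlap for Rars2.

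The 7 mitochondrial genes that did not pass had log2 fold changes between -0.21 and 0.08. Iars2, for isoleucine and the most abundant of the class, had 13.8, 14.4 and 12.3 CPM in senescent libraries, against 14.8, 14.4 and 14.8 CPM in quiescent libraries (-0.12, edgeR adjusted p = 0.0969). Its senescent libraries lay just below the quiescent ones, as did those of Tars2, for threonine (-0.12). Fars2 (-0.21), Aars2 (-0.13), Pars2 (-0.10), Wars2 (0.06) and Mars2 (0.08), for phenylalanine, alanine, proline, tryptophan and methionine, overlapped between groups. Pars2 had as few as 54 counts in a library, and depth limits the precision of values at such counts. Iars2 had 1264 to 1707 counts, with a standard error of 0.06, beside 0.17 for Pars2. Without senescent replicate 2 the decreases of Fars2 (-0.32) and Iars2 (-0.17) passed, and 8 mitochondrial genes fell. The share of all tested genes that fell in that fit is not given here.

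**Figure D2:**
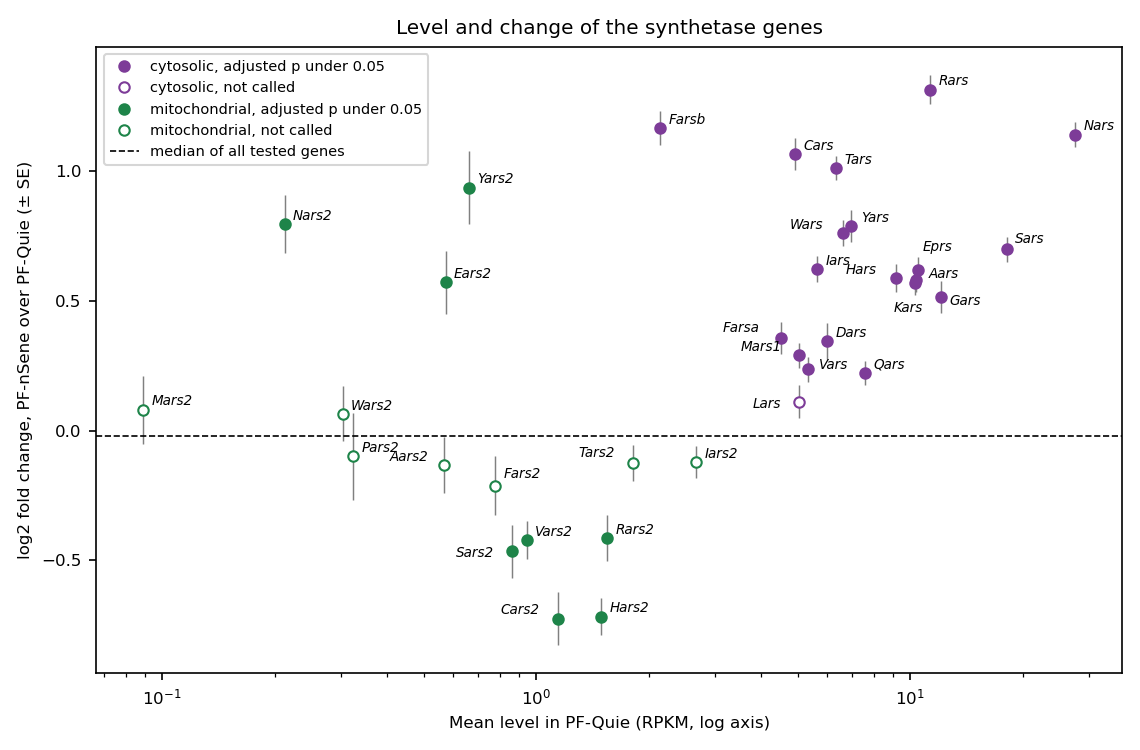
Log2 fold change of PF-nSene over PF-Quie (± standard error) of 35 synthetase genes against its mean level in quiescent cells in RPKM on a log axis. Filled points passed edgeR's test and the dashed line is the median of all tested genes, -0.02. Cytosolic genes (purple) lie at 2.15 to 27.7 RPKM and above the line, and mitochondrial genes (green) at 0.0889 to 2.68 RPKM on both sides of it.

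Levels per length separated the classes more than the condition did. The cytosolic genes had a median of 11.6 RPKM in senescent cells and 6.78 RPKM in quiescent cells, and the mitochondrial genes 0.683 RPKM in senescent cells and 0.752 RPKM in quiescent cells. Nars was the highest, at 61.0 RPKM in senescent and 27.7 RPKM in quiescent cells, followed in senescent cells by Sars at 29.4 and Rars at 28.1 RPKM. Cars stood at 10.3 RPKM in senescent and 4.92 RPKM in quiescent cells, and Yars2 at 1.27 RPKM in senescent and 0.662 RPKM in quiescent cells. Neighbours such as Eprs, Aars and Kars, at 16.2, 15.6 and 15.3 RPKM in senescent cells and 10.5, 10.4 and 10.3 RPKM in quiescent cells, are not set apart, since their order depends on the transcript chosen. Mars2 was the lowest at 0.0945 RPKM in senescent and 0.0889 RPKM in quiescent cells, a value that rests on an annotated transcript of 11294 bases.

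Since both enzymes for an amino acid were counted in the same library, their ratio does not depend on library scaling. The cytosolic to mitochondrial log2 count ratio was taken for 17 gene pairs of 16 amino acids. It was higher in every senescent than in every quiescent library for 14 pairs, lower for 0 and overlapping for 3. The median difference was 0.72. The share over other gene pairs was not computed. Of single tested genes, 38.4% had all senescent libraries above and 78.3% had groups that did not overlap in either direction. The ratios restate, pair by pair, the changes of both classes given above. An exact two-sided permutation test over the 6 libraries cannot go below 0.1 in this design. The 14 pairs each reached 0.1 (0.121 adjusted over the 17 pairs), so no pair can pass 0.05. Pairs that share Eprs or Fars2 are not independent.

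In 6 pairs the cytosolic gene rose and the mitochondrial gene fell, among them those for cysteine, arginine, histidine, serine and valine. These calls, unlike the ratios, depend on scaling, and Vars was not called under library totals (-0.06). The share of such pairs among other gene pairs was not computed. The log2 ratio of Cars to Cars2 was 4.54, 4.55 and 4.87 in senescent libraries, against 2.80, 2.98 and 2.79 in quiescent libraries, the largest difference at 1.79. For Rars to Rars2 it was 4.80, 4.59 and 4.90 in senescent libraries, against 3.03, 2.96 and 3.12 in quiescent libraries. For Hars to Hars2 it was 3.15, 3.17 and 3.21 in senescent libraries, against 1.84, 1.92 and 1.85 in quiescent libraries. The spread within each group was small beside these shifts, with standard deviations of at most 0.19.

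In 3 pairs both genes rose by the same calls, though Ears2 was not called under library totals (0.28). The log2 ratio of Nars to Nars2 averaged 6.91 ± 0.0707 in senescent libraries and 6.56 ± 0.117 in quiescent libraries (SD, n = 3 each), and its groups did not overlap, with a difference of 0.35. For Eprs to Ears2 it was 5.51 ± 0.125 in senescent libraries and 5.46 ± 0.248 in quiescent libraries, and for Yars to Yars2 4.14 ± 0.187 in senescent libraries and 4.28 ± 0.124 in quiescent libraries. The libraries of the glutamate and tyrosine pairs overlapped, with exact permutation p = 1.0 and 0.4. The methionine pair, Mars1 to Mars2, overlapped too, at 4.09 ± 0.162 in senescent libraries and 3.88 ± 0.127 in quiescent libraries (exact permutation p = 0.2).

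**Figure D3:**
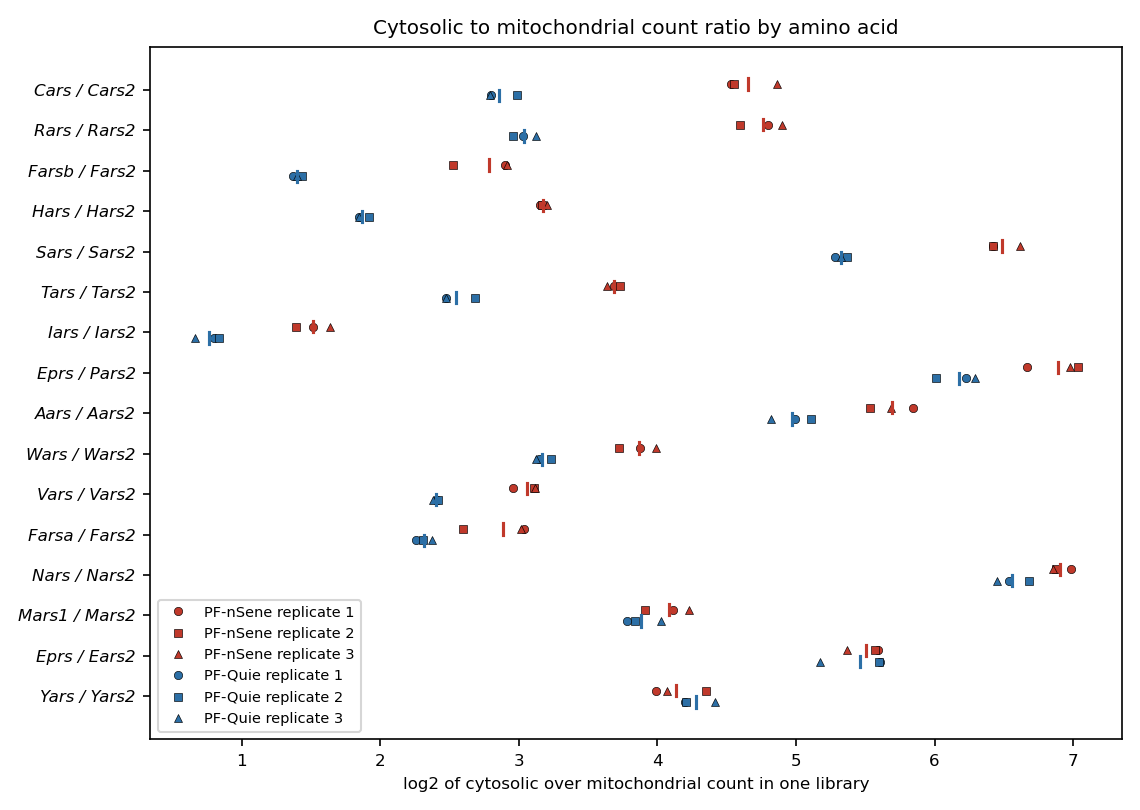
Log2 ratio of the cytosolic to the mitochondrial synthetase count within each library, a row per pair, ordered by the difference between groups. Red points above blue ones in a row are senescent and quiescent libraries, and short bars are group means. Red lies to the right of blue without overlap in 13 of the 16 rows drawn, by 1.79 for Cars and Cars2 at the top, and overlaps it in the methionine, glutamate and tyrosine rows at the bottom.

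Of 10 genes of related enzymes, for trans-editing, amidation, formylation and selenocysteine charging and including the threonyl-tRNA synthetase-like gene Tarsl2, 0 rose and 6 fell, with a median of -0.28, beside 36.7% of all tested genes that rose and 37.8% that fell. Tarsl2, whose symbol lies outside the rule, had a log2 fold change of -0.18 and did not pass. Gatb and Gatc, subunits of the mitochondrial amidotransferase that completes glutamine charging after Ears2, fell by 0.60 (standard error 0.12) and 0.32 (standard error 0.08), while Ears2 rose. Qrsl1, its catalytic subunit gene, had a log2 fold change of -0.11 and did not pass. Sepsecs, which completes selenocysteine charging, fell by 0.52, and Dtd1, which clears D-amino acids from tRNA, fell by 0.53. Under library totals 0 rose and 9 fell, where 52.9% of all tested genes fell, and without senescent replicate 3, 1 rose and 6 fell.

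Known ATF4 targets other than the synthetases mostly rose. Of 34 genes, 25 rose (73.5%) and 4 fell (11.8%), with a median of 0.73, beside 36.7% and 37.8% of all tested genes (20 rose and 9 fell under library totals). The highest were the cystine transporter gene Slc7a11 (log2 fold change 3.00, standard error 0.19), the serine synthesis gene Phgdh (2.99, standard error 0.19) and the stress factor gene Atf3 (2.69, standard error 0.15). Asns, which makes asparagine, the substrate of Nars, had 21.3 ± 0.278 CPM in senescent libraries and 9.52 ± 0.772 CPM in quiescent libraries (SD, n = 3 each). Slc1a5, a glutamine transporter gene, fell by 1.33, the proline synthesis gene Pycr1 (-0.02) and the pseudokinase gene Trib3 (-0.16) did not pass, and Stc2 (-0.59) and Slc1a4 (-0.38) fell. Xpot, which exports tRNA from the nucleus and is on this list, rose by 0.65 (standard error 0.05).

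The mRNA of Atf4 itself had 35.9 ± 2.04 CPM in senescent libraries and 31.7 ± 0.582 CPM in quiescent libraries (SD, n = 3 each). Its log2 fold change was 0.18 (standard error 0.05, edgeR adjusted p = 0.00804), and it was -0.12 and not called under library totals. Of the 14 sensors and factors of the integrated stress response 10 rose (71.4%) and 2 fell (14.3%), beside 36.7% and 37.8% of all tested genes. Under library totals 5 rose and 4 fell, beside 21% and 52.9% of all tested genes. Eif2b3, a subunit of the exchange factor eIF2B, rose by 1.54, Eif2b2 by 0.92 and Eif2ak4, the gene of the kinase Gcn2 that binds uncharged tRNA, by 0.89. The gene of the heme-regulated kinase, Eif2ak1, fell by 0.35 and that of PKR, Eif2ak2, by 0.34. ATF4 protein and eIF2 phosphorylation were not measured.

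**Figure D4:**
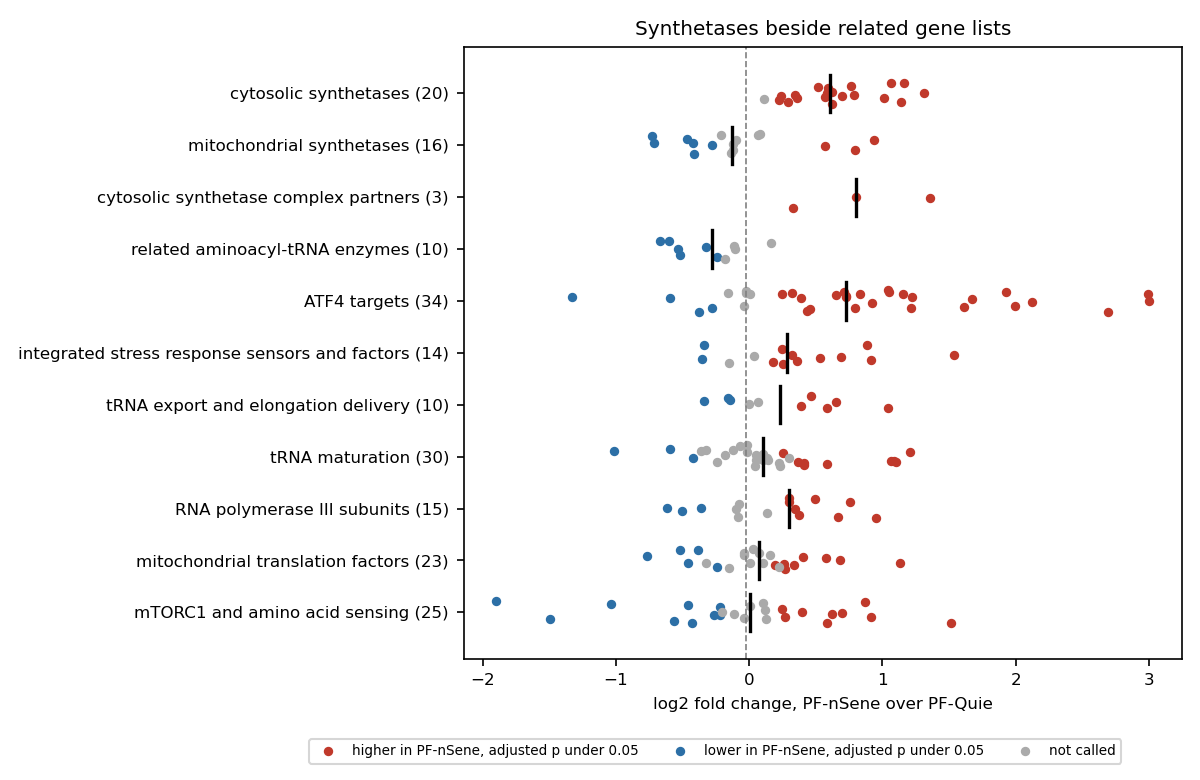
Log2 fold change of PF-nSene over PF-Quie for each gene of the synthetase classes and of 9 related lists, with the number of tested genes in parentheses. Red points rose and blue points fell at an adjusted p under 0.05, grey points were not called, black bars are list medians and the dashed line is the median of all tested genes. The cytosolic synthetases (median 0.60) and the ATF4 targets (0.73) lie mostly to the right of the line, and the mitochondrial synthetases (-0.13) on both sides of it.

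Other steps that surround tRNA charging were mixed. The counts stand beside 36.7% of all tested genes that rose and 37.8% that fell, or 21% and 52.9% under library totals. Of 15 genes for RNA polymerase III, which transcribes tRNA, and its factors, 8 rose and 3 fell with a median of 0.30 (3 rose and 6 fell under library totals). Polr3d rose by 0.96 and Polr3g by 0.67, whereas Polr3gl (-0.62), the repressor gene Maf1 (-0.50) and Brf1 (-0.36) fell. Of 30 tRNA maturation genes 9 rose and 3 fell, with a median of 0.10 (5 rose and 13 fell under library totals). Pop1, a subunit of RNase P (1.21), the methyltransferase gene Trmt61a (1.10) and the pseudouridine synthase gene Pus1 (1.09) rose most, while Osgep (-1.02) and Tsen34 (-0.60) fell.

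Of 10 genes listed for tRNA export and elongation, 5 rose and 3 fell, with a median of 0.23 (3 rose and 5 fell under library totals). The list also held elongation genes such as Eif5a and Eef2, so its counts do not describe tRNA export and delivery alone. Eif5a (1.04), Xpot and Xpo5 (0.59) rose, while Eef1a1, whose product carries charged tRNA to the ribosome, fell by 0.34, Eef2 by 0.16 and Nup155 by 0.14. A list of 23 genes held mitochondrial translation factors and also genes of mitochondrial transcription and RNA processing. Tfam and Polrmt belong to transcription, and Trmt10c, Hsd17b10 and Lrpprc to RNA processing or stability. The counts therefore do not describe translation factors alone. Of the 23 genes 8 rose (34.8%) and 5 fell (21.7%), a share of increases near that of all tested genes. Their median was 0.07 (3 rose and 11 fell under library totals). Trmt10c (1.13), Lrpprc (0.68) and Mtres1 (0.58) rose, and Guf1 (-0.76), Hsd17b10 (-0.46) and Mtrf1l (-0.38) fell. Of 25 genes of amino acid sensing by mTORC1, 9 rose and 9 fell (36% each), shares near those of all tested genes, with a median of 0.01 (6 rose and 13 fell under library totals), among them Rragd (1.52), Sar1b (0.91) and Rheb (0.87), and Sesn1 (-1.90), Sesn3 (-1.03) and Lamtor4 (-0.57).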

How the data were processed

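The authors deposited whole-number read counts for each gene symbol in 6 libraries. The submitters' processing notes name mm10, limma 3.46.0 and edgeR 3.32.1 with no role. The sources used here do not give the aligner, the counter or the use of strand. Libraries were directional and sequenced as 100 bp pairs, per the labels. Of 25239 rows, 14065 passed filterByExpr (minimum count 10, grouped) and entered edgeR 4.0.16 (R 4.3.3, TMM, robust quasi-likelihood F test, Benjamini-Hochberg over all rows, threshold 0.05). A standard error is the log2 fold change over the root of its F. CPM used TMM-adjusted totals with ribosomal rows, which lowers them. RPKM divides CPM by the longest principal transcript in GENCODE M21 (GRCm38, as mm10). The ratio used a pseudocount of 0.5 and exact permutation (scipy 1.17.1). Alternatives were other scalings, filters and thresholds, DESeq2 1.42.0, limma-voom (3.58.1), a replicate block and each library left out.

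Members and lists were chosen with earlier results of these data known. Values per library are given for the 6 highest and 4 lowest passing genes of each class and for pairs that moved apart; lists give up to 3 genes in each direction at a mean log2 CPM of at least 0, with Atf4, Xpot and scaffold genes always named. Lars, Iars2, Asns, Pycr1, Trib3, Qrsl1, Gatb, Gatc and others outside that rule were named after their values were seen. Counts were simulated for this comparison over 13858 genes, with 200 changed, up or down, and 1 level of spread shared by all genes. In them 4 false calls were made. The share recovered of 50 genes per size was 44% for 1.25-fold, 82% for 1.5-fold, 96% for 2-fold and 100% for 4-fold changes. In the data 74.5% of tested genes were called and spread differs by gene, so these figures do not carry over to the results. Exon overlaps with other genes make up at most 22.9% of a member's exon bases (Iars2 with Rab3gap2, opposite strands), and such counts are uncertain without stated strand use. Aars shares 14.3% of its exon bases with Exosc6 on the same strand, an overlap that strand use would not resolve. Depth covers counting error only. Values of 1 mitochondrial member and of some list genes are not reported here one by one, though all stand in the counts.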

Additional observations from a re-analysis of the deposited data

How the results depend on the processing

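Of 612 refits of single synthetase genes under the alternatives, 583 kept their direction and side of the threshold. With library totals in place of TMM, 2952 genes rose and 7435 fell, and 1 cytosolic and 10 mitochondrial synthetases fell. The sign turned for Lars (-0.19), Mars1 (-0.0086), Qars (-0.077), Vars (-0.063), Mars2 (-0.22) and Wars2 (-0.24). Ribosomal rows made up 79.8 to 81.5% of these totals in quiescent and 80.5 to 82.8% in senescent libraries. Their part in the sign changes was not tested. Upper quartile factors turned Mars2 (-0.014) and Wars2 (-0.030), leaving out PF-nSene replicate 2 turned Mars2 (-0.012 to 0.14 over all libraries left out), and leaving out PF-Quie replicate 2 turned Pars2 (-0.23 to 0.035); the cause was not tested. Upper quartile factors also made 9 mitochondrial genes fall, with the median of all genes at -0.115 and the mitochondrial median at -0.223. Leaving out each library gave 19 to 20 cytosolic genes that rose, 3 mitochondrial genes that rose and 6 to 8 that fell, and 14 to 15 pairs with separate ratios. Against a 1.2-fold change (glmTreat) 15 cytosolic genes rose and 5 mitochondrial ones fell. Shares of all tested genes called are not given here for upper quartile factors, libraries left out, glmTreat or the block below. The counts under them describe how far the calls hold and do not set the members against all genes. With the replicate number as a block, 19 cytosolic genes rose and 3 mitochondrial genes rose and 6 fell, as without it; 15 pairs had a positive difference within every replicate number. Libraries of the same number did not deviate together (r = 0.0512, -0.0101 and 0.0579), so no pairing by number was seen. With 3 libraries per group this cannot exclude a shared culture, animal or preparation. All 119 alternatives for the pair differences stayed within 1 SD, and 35 of 544 alternatives for list counts moved by over 1.5 times. Mitochondrial synthetases, with 54 to 1707 counts, are limited by depth more than cytosolic ones, with 463 to 17169.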
